A study of Ostrinia furnacalis with 9 samples.

Results

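The H3K9me3 peaks of pre-diapause heads were compared with those of non-diapause heads in larvae of the Asian corn borer, Ostrinia furnacalis, a moth whose larvae can arrest development in diapause. The members are all peaks of the pre-diapause and the non-diapause H3K9me3 lists on scaffolds (sequence names that start with NW_). They number 11708 of the 29330 peaks in the 6 deposited lists, 7225 at pre-diapause and 4483 at non-diapause. A single further sequence, whose name starts with NC_, was left out with its peaks. The assay was ChIP-seq of heads, and the series holds 9 samples, 1 for each of 2 repressive histone marks (H3K9me3 and H3K27me3) and 1 input at each of 3 stages. Pre-diapause larvae had spent 20 days at 20 °C from the start of the fourth instar, in a daily cycle of 12 h light and 12 h dark. Diapause larvae, whose lists were used for comparison, had at least 30 days at the same temperature and light cycle. Non-diapause larvae have no rearing of their own in the labels, and the stock was held at 27 °C in a cycle of 16 h light and 8 h dark. All larvae came from a field-collected stock reared on an artificial diet. Where non-diapause larvae were kept as the stock was, stage goes together with temperature, day length and time in the cool regime, and these cannot be told apart. How many heads went into a library is not given in the sources used here. With 1 library a side the stages were not tested against each other, and no difference could be set against replicate error. Intervals in parentheses are exact 95% intervals. They are Clopper-Pearson intervals for shares and order-statistic intervals for medians, and they cover counting error only.

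H3K9me3 is the trimethylated form of lysine 9 on histone H3. It is laid down by methyltransferases of the SUV39 and SETDB1 kind and bound by proteins of the HP1 family, which compact the chromatin. It is known from constitutive heterochromatin and from silenced transposable elements, and HP1 can recruit further methyltransferase, through which such domains spread along the chromosome. A gain of H3K9me3 can in principle show as wider domains, as neighbouring domains that join, or as domains at other places, and the lists were read for each of these.

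The pre-diapause list had more peaks than the non-diapause list, and most of its added length lay in peaks with no counterpart at non-diapause. A peak was called kept where any peak of the other stage overlapped it, by 1 bp or more. At pre-diapause 3722 peaks, or 51.5% (50.4–52.7), were kept and 3503, or 48.5% (47.3–49.6), were called only there. At non-diapause 3762 peaks, or 83.9% (82.8–85.0), were kept and 721, or 16.1% (15.0–17.2), were called only there. Pre-diapause peaks covered 5.23 Mb and non-diapause peaks 2.91 Mb, a ratio of 1.80, against a ratio of 1.61 in the number of peaks. Both lists together covered 2.38 Mb in common. Of the 2.85 Mb covered at pre-diapause and not at non-diapause, 2.12 Mb (74.2%) lay in pre-diapause-only peaks and 0.735 Mb (25.8%) in the margins of kept peaks. In the other direction, 0.325 Mb of non-diapause-only peaks and 0.210 Mb in the margins of kept peaks were not covered at pre-diapause. The number of reads behind each list is unknown, so these sums describe the lists, and a peak missing from a list is not shown to be absent from the chromatin. The counts also turned on list length: with the pre-diapause list shortened to its 4483 strongest calls, 1495 pre-diapause-only and 1458 non-diapause-only peaks were left.

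Peaks called at a single stage were narrower than kept peaks on both sides. The median width was 624.5 bp (606–642) for kept and 463 bp (453–474) for pre-diapause-only peaks. It was 527 bp (516–541) for kept and 380 bp (371–389) for non-diapause-only peaks. The narrowest peak was 303 bp at pre-diapause and 299 bp at non-diapause. Of the pre-diapause-only peaks 5.40% were within 1 bp of that shortest width, and of the non-diapause-only peaks 10.1%. The wide end also differed. Peaks over 1000 bp made up 24.0% (22.6–25.4) of kept and 11.4% (10.4–12.5) of pre-diapause-only peaks, and 15.9% (14.8–17.2) of kept and 1.25% (0.572–2.36) of non-diapause-only peaks. Over 2000 bp there were 191 kept and 43 pre-diapause-only peaks at pre-diapause, and 93 kept and 0 non-diapause-only peaks at non-diapause. A count of 0 among 721 allows a share of up to 0.510% by the exact interval. The widest pre-diapause-only peak was 7464 bp, whereas the widest non-diapause-only peak was 1410 bp. The order of the unpaired peaks depended on list length. With the pre-diapause list shortened to its strongest calls, the median was 408 bp (397–417) for pre-diapause-only and 434 bp (423–446) for non-diapause-only peaks.

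**Figure D1:**
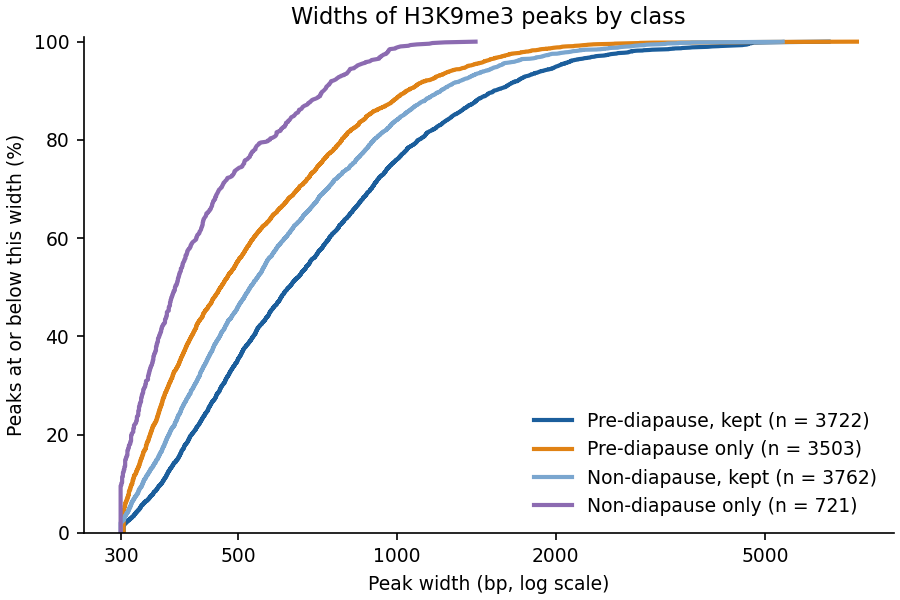
Cumulative share of peaks (y axis, percent) by peak width (x axis, bp, log scale) for kept and pre-diapause-only peaks of the pre-diapause list and for kept and non-diapause-only peaks of the non-diapause list. Kept pre-diapause peaks lie farthest to the right, with a median of 624.5 bp, and non-diapause-only peaks farthest to the left, with a median of 380 bp in the full lists.

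The unpaired peaks were also weaker than kept peaks by the authors' own measures within each list. The authors' fold enrichment sets the signal of a peak against a background whose making is not stated. Its median was 3.93 in kept and 2.87 in pre-diapause-only peaks of the pre-diapause list, and 3.52 in kept and 3.02 in non-diapause-only peaks of the non-diapause list. Both lists were also divided into 10 parts of equal size by the authors' −log10 q, the strength of a call. In the weakest part 85.3% (82.5–87.8) of pre-diapause and 39.4% (34.9–44.1) of non-diapause peaks had no counterpart. In the strongest part this held for 7.88% (6.03–10.1) of pre-diapause and 0.445% (0.0540–1.60) of non-diapause peaks. Within the strongest part, the 57 pre-diapause-only peaks had a median width of 403 bp, against 854 bp for the kept ones. In the weakest part the medians were 521 and 513.5 bp, so weak pre-diapause-only peaks were about as wide as weak kept peaks.

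Kept peaks were in most cases wider at pre-diapause, by a small amount. Of the 3708 groups of overlapping peaks, 3642 (98.2%) held 1 peak of each list. In these pairs the median width was 617.5 bp at pre-diapause and 524.5 bp at non-diapause, and the pre-diapause peak was wider in 2510 pairs, or 68.9% (67.4–70.4). It was narrower in 1121 pairs and of equal width in 11. The median difference within a pair was 51 bp (45–54), and the middle 50% of the pairs lay between -18 and 176 bp. Both edges shared in it: the left edge lay a median of 23 bp and the right edge 24 bp farther out at pre-diapause. The pre-diapause peak reached beyond both edges of its partner in 42.6% of the pairs and stayed within both in 12.9%. In 1586 pairs (43.5%) the non-diapause peak lay wholly inside the pre-diapause one. Large differences were less common. The pre-diapause peak was at least 1.5 times as wide in 621 pairs (17.1%) and at least 2 times as wide in 297 (8.15%). The non-diapause peak was at least 1.5 times as wide in 138 pairs (3.79%) and at least 2 times in 58 (1.59%).

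The pairs were also divided by the strength of the non-diapause peak, which is not independent of its width, one side of the difference, so the values are a description. In the weakest 10% of the non-diapause list the median difference was 167 bp (127–196) over 261 pairs, and 21.5% of these pairs were at least 2 times as wide at pre-diapause. In the strongest 10% it was 34 bp (26–42) over 435 pairs, with 2.53% at least 2 times as wide. The pre-diapause peak was wider in 75.5% (69.8–80.6) of the weakest and 72.6% (68.2–76.8) of the strongest pairs, so the share that was wider differed less than the size of the difference.

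**Figure D2:**
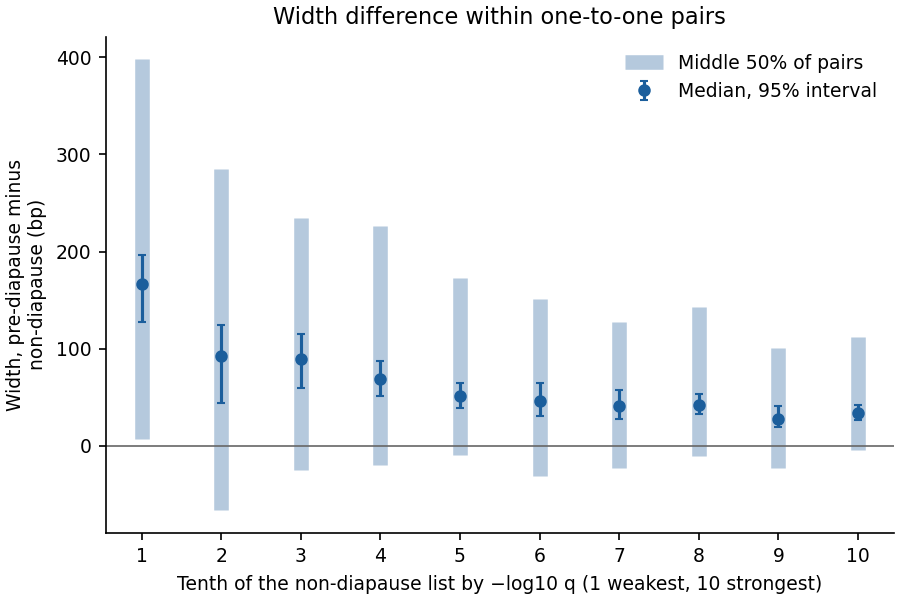
Width of the pre-diapause peak minus the width of the non-diapause peak (y axis, bp) in one-to-one pairs, by strength of the non-diapause peak in 10 equal parts of its list (x axis). Points are medians with 95% intervals and bars hold the middle 50% of pairs; the medians are above 0 in each part and run from 167 bp in the weakest to 34 bp in the strongest.

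In the 5 pairs with the largest gain in width, a non-diapause peak of 435 to 793 bp lay inside a pre-diapause peak of 3461 to 4935 bp. On scaffold NW_021131070.1 the pre-diapause peak at 41311–46245 was 4935 bp wide, against 473 bp at 44754–45226 in the non-diapause list. On NW_021137817.1 it was 4292 bp wide at 76772–81063, against 793 bp at non-diapause. The others lay on NW_021132661.1 (3822 bp at pre-diapause, 435 bp at non-diapause), NW_021130850.1 (3530 and 443 bp) and NW_021137791.1 (3461 and 646 bp). Folds in these wide peaks were modest, between 1.98 and 3.72 at pre-diapause and between 1.75 and 2.71 at non-diapause. A diapause H3K9me3 peak was called at the first of them and at no other. The non-diapause partners on NW_021132661.1, NW_021130850.1 and NW_021137791.1 were weak calls, with −log10 q of 2.04, 2.16 and 2.87. The minimum of that list was 2.01. With −log10 q of at least 3 these pre-diapause peaks were no longer kept. On NW_021131070.1 and NW_021137817.1 the partners had 4.92 and 6.08. Losses of width were smaller. The largest was on NW_021131850.1, where the peak was 842 bp wide at pre-diapause (111447–112288) and 2265 bp at non-diapause (110257–112521). On NW_021130254.1 it was 362 bp wide at pre-diapause and 1515 bp at non-diapause, and on NW_021137906.1 2144 bp at pre-diapause and 3247 bp at non-diapause.

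Among the 5 strongest pairs the pre-diapause peak was wider in 3 and narrower in 2. At the start of scaffold NW_021134836.1 the peak at 1–710 had a fold of 39.7 at pre-diapause, and the peak at 1–884 had 28.6 at non-diapause. On NW_021134442.1 the peak was 657 bp wide with a fold of 26.2 at pre-diapause, and 563 bp wide with 19.5 at non-diapause. On NW_021135312.1 the widths were 1027 bp at pre-diapause and 1059 bp at non-diapause, with folds of 20.5 and 15.6. NW_021131106.1 had 1415 bp with a fold of 20.2 at pre-diapause and 1373 bp with 16.2 at non-diapause. NW_021134443.1 had 633 bp with a fold of 18.6 at pre-diapause and 596 bp with 12.5 at non-diapause. All 5 had H3K27me3 peaks at both stages, and H3K9me3 peaks at diapause. The lists have no common scale for fold, so the higher pre-diapause folds are no measure of gain.

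Joining of neighbouring peaks was rare. A single pre-diapause peak reached over 2 or more non-diapause peaks in 53 cases, 52 over 2 and 1 over 3, which together took in 107 non-diapause peaks. The reverse, 1 non-diapause peak over 2 pre-diapause peaks, occurred 14 times. With peaks of a list under 2000 bp apart joined beforehand, these counts were 8 and 2, and they were 0 by construction where paired peaks had to cover 50% of each other. The 54 gaps bridged at pre-diapause were between 656 and 2842 bp long, with a median of 1013 bp. Neighbouring non-diapause peaks up to 1000 bp apart numbered 67 pairs, and 25 of these gaps, or 37.3%, were bridged. Of 119 gaps over 1000 and up to 2000 bp 27 were bridged, and only 2 bridged gaps were longer. Joining peaks had a median width of 3001 bp, against a median of 1856 bp for the summed width of the non-diapause peaks under them. H3K27me3 was called at pre-diapause in 49 of the 53 (92.5%), and diapause H3K9me3 in 40 (75.5%). Of the 53, 45 were wider than 2000 bp. Among all kept pre-diapause peaks over 2000 bp the shares were close to these, at 90.1 and 75.9%.

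The pre-diapause peak over 3 non-diapause peaks lay on NW_021131398.1 at 46284–52306, with a fold of 2.81. The non-diapause peaks under it were 810, 1038 and 424 bp wide, with folds of 1.87, 1.82 and 1.88. The widest joining peak lay on NW_021137791.1 at 347265–353860 and was 6596 bp wide. Under it were a non-diapause peak of 5357 bp and another of 359 bp. The longest gap, 2842 bp, was bridged on NW_021133322.1 at 1123–7380, between non-diapause peaks of 561 and 2033 bp. The peaks on NW_021130448.1 (16127–21661) and NW_021137587.1 (70126–74879) each took in 2 non-diapause peaks, across gaps of 2006 and 1009 bp. Where peaks split, the gaps were short, with a median of 608.5 bp. The widest split peak, on NW_021133386.1 at 32435–35253 in the non-diapause list, was met by pre-diapause peaks of 337 and 1984 bp with 569 bp between them.

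At the edge of the 1 bp rule the kept pre-diapause peaks with the least overlap shared 7 bp with a non-diapause peak (NW_021135517.1, 224481–225011), 10 bp (NW_021132808.1, 188614–189230) and 16 bp (NW_021134144.1, 298320–299995). Just outside it, pre-diapause peaks missed a non-diapause peak by 9 bp (NW_021131545.1, 163864–165000), 234 bp (NW_021130254.1, 384620–384953) and 283 bp (NW_021134734.1, 322496–322799).

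Pre-diapause-only peaks lay mostly far from the non-diapause peaks, and kept peaks lay nearly as far from the next one. The median gap to the nearest non-diapause peak of the same scaffold was 29472 bp (27953–31473) over the 3200 peaks with such a neighbour. For kept pre-diapause peaks, the median gap to the next non-diapause peak that they did not overlap was 26206 bp (24879–28016). The interval for pre-diapause-only peaks starts just below the upper end of that for kept peaks, so the medians lay close together. Of the pre-diapause-only peaks 69, or 1.97% (1.54–2.49), were within 1 kb of a non-diapause peak, 371 (10.6%) within 5 kb and 717 (20.5%) within 10 kb. For kept peaks the same shares were 1.96, 13.9 and 24.2%. In 54 of the 69 near cases (78.3%) the neighbour was itself a kept peak, against 83.9% kept among all non-diapause peaks. Within a list, peaks were never closer than 530 bp at pre-diapause and 602 bp at non-diapause. Inside the non-diapause list the median gap to the nearest other peak was 26047 bp (24867–27913). Inside the pre-diapause list it was 15775 bp (14749–16625) for pre-diapause-only and 16893 bp (16163–17731) for kept peaks. Non-diapause-only peaks had a median gap of 21286 bp (19250–23264) to the nearest pre-diapause peak, in the longer list.

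**Figure D3:**
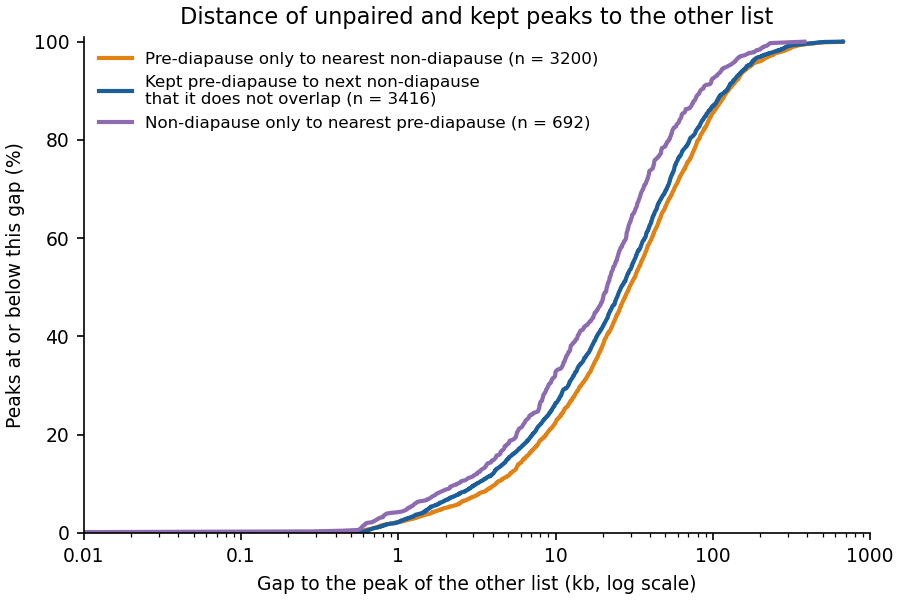
Cumulative share of peaks (y axis, percent) by the gap to the other list on the same scaffold (x axis, kb, log scale; 1 pair of peaks 9 bp apart lies left of the axis). The curve of pre-diapause-only peaks runs just right of that of kept pre-diapause peaks, with medians of 29472 and 26206 bp; non-diapause-only peaks lie to the left with 21286 bp.

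Pre-diapause-only peaks were also described by their distance from the non-diapause list. Pre-diapause-only peaks within 1 kb had a median width of 479 bp (405–576) and a median fold of 2.65, and those over 50 kb away 468 bp (450–486) and 2.95. H3K27me3 was called at 31.9% (21.2–44.2) of the peaks within 1 kb, 30.0% (27.3–32.9) of those over 50 kb away and 22.8% (18.2–27.9) of those on scaffolds without a non-diapause peak. Peaks over 1000 bp made up 5.80% (1.60–14.2) within 1 kb, and between 10.3 and 13.3% in the classes farther out. The farthest pre-diapause-only peaks lay on NW_021137484.1 at 115599–115933, 673565 bp from the nearest non-diapause peak, on NW_021130315.1 at 36498–37115 (672174 bp), and again on NW_021137484.1 at 152344–152856 (636642 bp).

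The strongest unpaired peaks of pre-diapause were 335 to 676 bp wide and carried H3K27me3 at the same stage. The highest fold, 10.0, was at NW_021131459.1 70–404, on a scaffold with no non-diapause H3K9me3 peak. NW_021133324.1 190737–191364 had a fold of 6.77 and lay 6816 bp from a non-diapause peak. NW_021137819.1 405085–405695 (6.67), NW_021132157.1 125755–126430 (6.46) and NW_021132152.1 483697–484113 (6.42) lay 30317, 54251 and 46994 bp away. H3K27me3 folds at these 5 were 9.64, 5.34, 4.81, 4.24 and 5.48 in the order given, and none had H3K27me3 at non-diapause. A diapause H3K9me3 peak was called only at the one on NW_021132157.1, with a fold of 2.39. Diapause H3K27me3 was called only at the one on NW_021131459.1, with a fold of 8.87. Among all pre-diapause-only peaks, H3K27me3 was called at 28.7% at pre-diapause, 6.25% at non-diapause and 10.2% at diapause. Diapause H3K9me3 was called at 21.3% of them.

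Of the 5 strongest non-diapause-only peaks 3 had pre-diapause H3K27me3, which was called at 51.7% of all 721 non-diapause-only peaks. NW_021134528.1 77–586, with a fold of 7.72, and NW_021130959.1 218761–219488, with 5.63, had no pre-diapause peak of either mark. Both had H3K27me3 at non-diapause, and the first also had H3K9me3 at diapause with a fold of 7.78. NW_021131446.1 246786–247148 (5.56), NW_021137579.1 646041–646531 (5.33) and NW_021133388.1 397745–398093 (5.18) had pre-diapause H3K27me3 peaks with folds of 3.81, 4.83 and 3.67. At these 3 places H3K27me3 was thus on the pre-diapause list while H3K9me3 was missing from it.

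Pre-diapause-only peaks were spread over the assembly and not gathered on a few scaffolds. They lay on 1034 of the 1332 scaffolds that had an H3K9me3 peak at either stage, with a median of 2 and at most 21 on a scaffold. The 10 scaffolds with the most held 171 of them (4.88%), and the 10 scaffolds with the most kept peaks held 5.35% of kept pre-diapause peaks. Peaks were more numerous at pre-diapause on 925 scaffolds, fewer on 95 and equal on 312. Among the 103 scaffolds with at least 10 non-diapause peaks, pre-diapause had more on 95, fewer on 6 and as many on 2. The ratio of pre-diapause to non-diapause peaks on these had a median of 1.42 and ran from 0.700 to 2.50, with quartiles of 1.2 and 1.64. The non-diapause count chose these scaffolds, so their ratio is not independent of it.

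**Figure D4:**
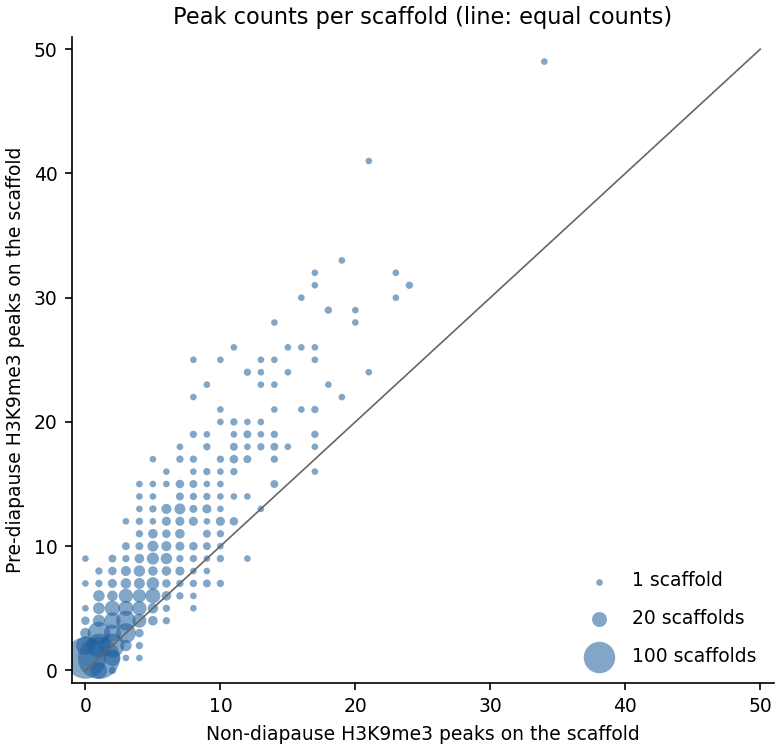
H3K9me3 peaks per scaffold at pre-diapause (y axis) against non-diapause (x axis), with the size of a circle showing how many scaffolds share these counts and the line marking equal counts. More scaffolds lie above the line than below it: 925 scaffolds had more peaks at pre-diapause and 95 had fewer.

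The share of pre-diapause peaks without a counterpart showed no steady order with scaffold size. Scaffold lengths were not used here, and the span to the farthest peak end in any of the 6 lists stood in for them. The share was 47.6% (45.0–50.1) on spans over 1 Mb and 48.4% (46.2–50.6) on spans from 500 kb to 1 Mb. On spans up to 10 kb it was 53.5% (46.8–60.1), on 10 to 50 kb 43.4% (37.5–49.4), the lowest of the 7 size classes, and on 50 to 100 kb 53.1% (47.9–58.3). Across the 1332 scaffolds, Spearman's rho with span was 0.73 for the number of pre-diapause-only peaks and 0.80 for the number of non-diapause peaks. Both numbers share the span of the scaffold as a common factor. The span is itself taken from peak ends, so a scaffold with more peaks tends to have a longer one. A positive rho was thus partly fixed by the measure.

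Pre-diapause peaks were called on 224 scaffolds with no non-diapause H3K9me3 peak, and these held 303 peaks. With the shortened pre-diapause list there were 127 such scaffolds. A single peak was called on 176 of them. Their spans were mostly short: 52.2% had a span of up to 10 kb, against 9.62% of the scaffolds with peaks at both stages. A span ends at the last peak, so scaffolds with few peaks tend to have short spans. The contrast therefore does not show that the scaffolds themselves were short. The reverse, non-diapause peaks on a scaffold with none at pre-diapause, was found on 27 scaffolds with 29 peaks. The 3 with the most peaks were spread over long and shorter spans. NW_021132634.1, with a span of 0.785 Mb, had 9 pre-diapause peaks and no non-diapause peak, NW_021131888.1 (0.721 Mb) had 7 and NW_021134796.1 (0.178 Mb) had 5.

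The 5 scaffolds with the most pre-diapause-only peaks were NW_021134484.1 with 21, NW_021132293.1 with 20, NW_021131371.1 with 19, and NW_021133039.1 and NW_021132152.1 with 18 each. Their totals were 41, 32, 49, 25 and 33 peaks at pre-diapause, and 21, 17, 34, 8 and 19 at non-diapause. Per Mb of span NW_021133039.1 stood highest of the 5 with 24.9 pre-diapause-only peaks, and the others had between 8.98 and 15.9. Non-diapause-only peaks reached at most 6 on a scaffold, on NW_021131868.1, NW_021137947.1 and NW_021132596.1. The first 2 of these had the lowest ratio of all scaffolds with at least 10 non-diapause peaks, with 7 peaks at pre-diapause and 10 at non-diapause. The highest ratio was that of NW_021132278.1, with 25 peaks at pre-diapause and 10 at non-diapause.

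Most pre-diapause-only peaks had no other pre-diapause-only peak close by, but a few stretches held 5 or more of them. Peaks were linked into a run where the next pre-diapause-only peak was at most 10 kb away, a measure chosen after the values were seen. Of the 3503 peaks 2671, or 76.2% (74.8–77.7), were alone, and 220 (6.28%) lay in 63 runs of 3 or more. Kept peaks were not counted in this, and 37.0% of pre-diapause-only peaks lay within 10 kb of another pre-diapause peak. Linked the same way, 74.7% (73.4–75.9) of all non-diapause peaks were alone and 5.35% lay in runs of 3 or more. For all pre-diapause peaks the shares were 64.4% (63.3–65.5) and 12.1%. Runs of 5 or more numbered 4 among non-diapause peaks and 23 among all pre-diapause peaks. Among pre-diapause-only peaks they numbered 8, with 52 peaks in lengths of 7.81 to 38.3 kb. Of these 8 runs, 6 had no non-diapause H3K9me3 peak within them. That largely follows from the choice, since pre-diapause-only peaks meet no non-diapause peak by definition. In 7 runs there was no H3K27me3 peak at any stage, and in 7 there was a diapause H3K9me3 peak. Among all pre-diapause-only peaks, 32.2% met an H3K27me3 peak at some stage and 21.3% a diapause H3K9me3 peak. These shares are for single peaks and the counts for whole runs, so they are unlike measures.

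The run with the most peaks lay on NW_021135248.1 at 44341–79009 and held 12 pre-diapause-only peaks in 34.7 kb, 303 to 1241 bp wide with folds of 2.16 to 3.34. The stretch had 13 H3K9me3 peaks at pre-diapause, which covered 22.8% of it, against 1 at non-diapause, at 69983–70460, which covered 1.38%. Pre-diapause-only peaks chose the stretch, and they meet no non-diapause peak by definition, so this contrast between stages is a description that the choice largely fixed. None of the 12 overlapped a diapause H3K9me3 peak. It was also the 1 run of the 8 with H3K27me3, which had 2 peaks there at pre-diapause, 1 at non-diapause and 2 at diapause. A second stretch, toward the end of NW_021133039.1, had more diapause peaks. It was bounded by hand around the pre-diapause-only peaks, across gaps wider than the 10 kb of the runs, so the contrast with non-diapause again follows largely from the choice. The run within it, at 660531–698796, held 7 pre-diapause-only peaks and at 38.3 kb was the longest of the 8. At 621842–698796, over 77.0 kb, it had 12 H3K9me3 peaks at pre-diapause and 1 at non-diapause, at 657831–659782. Pre-diapause peaks covered 31.9% and the non-diapause peak 2.54% of the stretch. Among the 11 pre-diapause-only peaks 6 were wider than 1000 bp, and those at 674925–681484 (6560 bp) and 644871–650093 (5223 bp) were among the 3 widest of all pre-diapause-only peaks. Of the 11, 7 overlapped a diapause H3K9me3 peak, and the 12 diapause peaks covered 16.7% of the stretch. H3K27me3 was represented by 1 pre-diapause peak of 380 bp. Folds were low throughout, from 1.84 to 2.58 at pre-diapause and 1.74 at non-diapause.

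**Figure D5:**
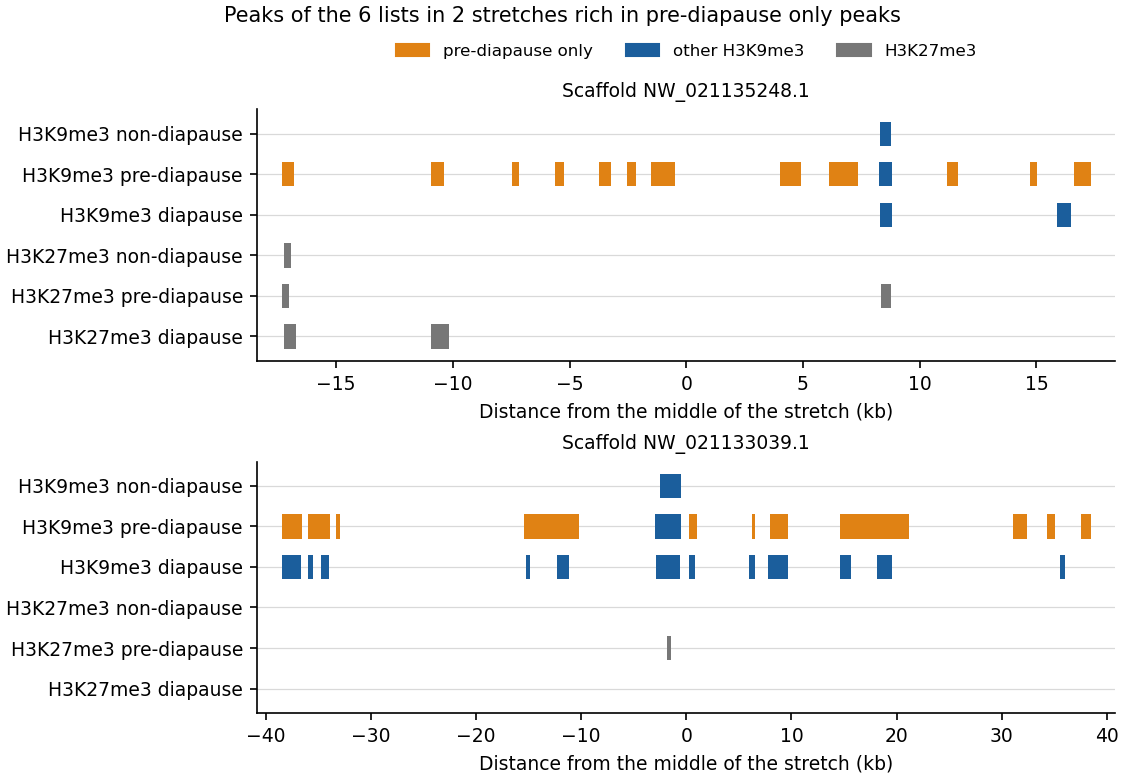
Peaks of the 6 lists (rows, by mark and in stage order) along the run with the most pre-diapause-only peaks (NW_021135248.1) and along a stretch of NW_021133039.1 bounded by hand, placed by distance from the middle of each stretch (x axis, kb). Pre-diapause-only H3K9me3 peaks (orange) number 12 and 11, non-diapause has 1 H3K9me3 peak in each stretch, and diapause has 2 in the upper and 12 in the lower.

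The other wide pre-diapause-only peaks were also without H3K27me3. The widest, on NW_021132152.1 at 975574–983037, had a fold of 3.47 and no peak in any other list. NW_021131384.1 348652–353366 (4715 bp, fold 2.62) and NW_021136861.1 43383–47866 (4484 bp, fold 3.69) had a diapause H3K9me3 peak. Of the 5 widest, 4 were weak enough by −log10 q to drop out of the shortened pre-diapause list. Among the 43 pre-diapause-only peaks over 2000 bp, 2, or 4.65% (0.568–15.8), had pre-diapause H3K27me3, and 22, or 51.2% (35.5–66.7), had diapause H3K9me3. Among the 1347 of up to 400 bp, the shares were 29.8% (27.3–32.3) and 16.3% (14.3–18.3). For kept pre-diapause peaks over 2000 bp they were 90.1% (84.9–93.9) and 75.9% (69.2–81.8). A wide peak meets another by 1 bp more readily than a narrow one. Measured by length, diapause H3K9me3 peaks covered 20.1% of the pre-diapause-only peaks over 2000 bp and 14.4% of those up to 400 bp.

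H3K27me3, which Polycomb proteins write, was more common at kept than at unpaired peaks. A pre-diapause H3K27me3 peak was called at 88.7% (87.6–89.7) of kept and 28.7% (27.3–30.3) of pre-diapause-only peaks. Non-diapause H3K27me3 was called at 72.1% (70.6–73.5) of kept and 6.25% (5.47–7.10) of pre-diapause-only peaks. An H3K27me3 peak of any stage was met by 32.2% of pre-diapause-only, 91.6% of kept and 62.8% of all pre-diapause peaks. The 2376 pre-diapause-only peaks that met none had a median width of 476 bp (462–492). For all pre-diapause-only peaks it was 463 bp (453–474). Where pre-diapause H3K27me3 was not called, 13.3% (12.0–14.7) of the pre-diapause-only peaks were wider than 1000 bp, and where it was called 6.85% (5.37–8.59). In kept peaks the order was the other way, with 16.9% (13.4–20.8) of those without and 24.9% (23.4–26.4) of those with the mark.

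Among the 721 non-diapause-only peaks, H3K27me3 was called more often at pre-diapause than at non-diapause. It was found at 51.7% (48.0–55.4) at pre-diapause and at 31.5% (28.1–35.0) at non-diapause, in lists of 6539 and 3755 H3K27me3 peaks. For kept non-diapause peaks the shares were 88.4% (87.4–89.4) and 71.3% (69.9–72.8). In number, 373 of the non-diapause-only H3K9me3 peaks were met by pre-diapause H3K27me3.

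At diapause, reached after at least 30 days in the cool regime, H3K9me3 was called at 50.3% (48.7–52.0) of kept and 21.3% (20.0–22.7) of pre-diapause-only peaks. It was called at 20.4% (17.5–23.5) of the non-diapause-only peaks. In number, 747 pre-diapause-only peaks were met by a diapause H3K9me3 peak. Another 1886, or 53.8% (52.2–55.5), met no peak in any of the 4 further lists, against 4.59% (3.94–5.32) of kept pre-diapause and 30.7% (27.3–34.2) of non-diapause-only peaks.

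Pairs were also compared by the H3K27me3 peaks that their pre-diapause peak met. The width of that peak is one side of the difference and bears on what it meets, so the values are a description. Strength differed too: the median −log10 q of kept pre-diapause peaks was 9.33 with pre-diapause H3K27me3 and 6.01 without it. Pairs with H3K27me3 at both stages were 40 bp (35–45) wider at pre-diapause in the median, over 2561 pairs. Those with H3K27me3 only at pre-diapause were 89 bp (71–107) wider over 667 pairs, and those with none at either stage 109 bp (77–142) over 353 pairs. The 61 pairs with H3K27me3 only at non-diapause had a median difference of 9 bp (-29 to 72), an interval that holds 0.

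The same measures were taken for H3K27me3 between the same stages, and for H3K9me3 at diapause against non-diapause, which shares its non-diapause list with the comparison described here. No test between them was possible. H3K27me3 pairs were wider at pre-diapause in 79.7% (78.3–81.0) of 3301 pairs, by a median of 79 bp (74–84), against 68.9% and 51 bp for H3K9me3. Diapause H3K9me3 peaks were wider than their non-diapause partners in 44.2% (42.0–46.4) of 1972 pairs, with a median difference of -20.5 bp (-30 to -11). Peaks over 1000 bp were 5.84% (5.05–6.71) of pre-diapause-only H3K27me3 peaks and 6.78% (5.55–8.19) of diapause-only H3K9me3 peaks, against 11.4% of pre-diapause-only H3K9me3 peaks. The median gap of stage-only peaks to the non-diapause list was 30801 bp (28969–33052) for H3K27me3 at pre-diapause and 29444 bp (26749–31819) for H3K9me3 at diapause, close to the 29472 bp given above.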

How the data were processed

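Peak lists were deposited by the authors in the 9-column broad-peak layout without a header. The submitters' processing notes list MACS2, Bowtie2, deepTools, Picard and ChIPseeker but no version. The genome build, pooling and use of the inputs are not given in the sources used here. The deposited fold is a ratio over background. The authors also deposited −log10 p, which was not used, −log10 q, and a score that came to 10 times −log10 q, to within 1. Fold and −log10 q were used only within a list, where −log10 q was at least 2.03 at pre-diapause and 2.01 at non-diapause.

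Positions are written 1-based. Overlap needed 1 bp, overlapping peaks were grouped, and gaps were taken within a scaffold. The procedures were tested on simulated data. No p-values were computed. The 17154 genes of the RefSeq table used here have no named scaffold, so genes and sequences near peaks were not analysed here. Named peaks and scaffolds are the extremes of each measure (5 each, 3 for splits, distances and threshold cases). Members, measures and lists were chosen with earlier results of these data known. Python 3.11.15, numpy 2.4.6, pandas 2.3.3, scipy 1.17.1 and matplotlib 3.10.9 were used. Alternatives covered the q minimum, overlap, list length, joining of peaks, scaffold starts and the NC_ sequence.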

Additional observations from a re-analysis of the deposited data

Results flagged for a closer look

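The sequence whose name starts with NC_ was outside the comparison, and peaks were called on it in both H3K9me3 lists. What this sequence is was not examined, so these calls are not read as H3K9me3 on it. At pre-diapause 1 peak covered 14507 bp of it with a fold of 5.62, and at non-diapause 3 peaks covered 13044 bp with folds of 3.75 to 6.26.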

How the results depend on the processing

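No paired analysis was possible because there was 1 library for each stage. The direction of the width difference within pairs held under the 6 alternatives chosen first and the 1 added after seeing the data. The added one joined peaks less than 2000 bp apart. Keeping the NC_ sequence and joining peaks under 500 bp left the pairs as they were, so these alternatives were no check on the direction. With the pre-diapause list shortened to the 4483 strongest peaks, 66.7% of pre-diapause and 67.5% of non-diapause peaks were kept, and unpaired peaks numbered 1495 at pre-diapause and 1458 at non-diapause. The order of their median widths turned, with 408 bp for pre-diapause-only and 434 bp for non-diapause-only peaks, against 463 and 380 bp in the full lists; the cause was not tested. The list lengths were then equal by construction. Pairs were then wider at pre-diapause in 72.5%, by a median of 55 bp. Where 50% of a peak had to be covered (of both peaks for pairs) 46.6% of pre-diapause and 81.5% of non-diapause peaks were kept, no peaks joined or split, the median width difference was 41 bp and the median gap of pre-diapause-only peaks 24683 bp. That gap was 32578 bp with −log10 q of at least 3 and 32408 bp with peaks joined under 2000 bp, where 53.1% of pre-diapause peaks were kept. Joining peaks under 500 bp changed nothing, since no 2 peaks of a list were that close. Joining under 2000 bp left 8 joining and 2 split peaks, against 53 and 14. The 47 named peaks under 7 alternatives make 329 cases. In 22 the peak was no longer listed, 14 of them with the shortened list, which lost 4 of the 5 widest pre-diapause-only peaks. Of the other 307, 291 kept the peak in its class. The 16 others include all 5 widest gains and 3 of the 5 joining peaks under the stricter overlap. They also include the widest gains on NW_021132661.1, NW_021130850.1 and NW_021137791.1 with −log10 q of at least 3. Read depth is unknown and could not be equalised.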

Other observations

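Peaks that began within the first 1000 bp of a scaffold made up 2.63% (2.14–3.20) of kept and 3.17% (2.61–3.80) of pre-diapause-only peaks at pre-diapause, and 2.45% (1.98–2.99) of kept and 1.66% (0.863–2.89) of non-diapause-only peaks at non-diapause. Spans up to 10 kb held 230 pre-diapause and 119 non-diapause peaks on 230 scaffolds, a ratio of 1.93, the highest of the 7 size classes. The next class, 10 to 50 kb, had the lowest ratio, 1.48, with 279 pre-diapause and 188 non-diapause peaks.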
